A study of Homo sapiens with 4 samples.

Results

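The insulin-like growth factor 2 (IGF2) ligand, its clearance receptor IGF2R and the 7 secreted IGF binding proteins, IGFBP1 to IGFBP7, were followed in MHCC-97H cells. They were chosen by name, with earlier results of these data known, and make up 9 of the 58735 genes counted. MHCC-97H is a human hepatocellular carcinoma (HCC) cell line of high metastatic potential. RNA was sequenced from wild-type cells given PBS or 2 μg of migrasomes (Migs), the large extracellular vesicles that migrating cells leave behind on their retraction fibers. Normo-Migs came from MHCC-97H cells kept in normoxia, hypo-Migs from the same line kept in hypoxia, and CD147KO-Migs from hypoxic MHCC-97H cells in which CD147 (the gene BSG) had been knocked out. All 4 cultures were treated for 24 h, and the knockout concerned the cells that released the Migs, not the cells that were sequenced. Whether the knockout cells were a single clone is not given in the sources used here. Each condition had 1 library, so no difference between conditions could be set against a measured spread between cultures, and no p-value is given.

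IGF2 is a growth factor of fetal liver that many liver cancers produce again. It signals through IGF1R and the insulin receptor, whereas IGF2R carries it to lysosomes and sends no kinase signal. The binding proteins hold IGFs in the fluid around cells, prolong their lifetime and mostly keep them from IGF1R until proteases cut the binding protein, and several of them also act on cells without IGFs.

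The libraries held 33882496 to 40285223 reads on genes. Counts are given as reads and as CPM, reads per 1000000 reads of the library after TMM scaling, and levels are compared between genes only as FPKM, which also divides by exon length. The library labelled PBS (the PBS library) stood apart from the Mig libraries. Between 30.2% and 30.5% of the genes tested were past 2-fold in either direction against it, beside 9.12% to 9.69% between Mig libraries. The labels give it the same line and batch as the others, which was not tested, so in the folds against it the treatment and any other difference of that library cannot be told apart. Mitochondrial genes took 2.69% of its reads and 5.00% to 5.16% of the reads with Migs. Known markers of liver cells were partly absent, as ALB, APOB, TTR, AFP and GPC3 had 0 reads in all 4 libraries, while the epithelial keratins KRT8 and KRT18 had at least 36742 reads in each. HNF4A had 134 reads in the PBS library and 141 to 246 with Migs. FGB had 0 reads in the PBS library and 561, 827 and 832 with normo-Migs, hypo-Migs and CD147KO-Migs. Of 14 liver markers, 5 had at least 10 reads in the PBS library and 4 to 7 in the Mig libraries, and their summed level, almost all keratin, was 4128 against 5563 to 6600 CPM. Of 8 fibroblast or mesenchymal markers, 6 had at least 10 reads in the PBS library and 7 in each Mig library, and their summed level was 307 CPM against 479 to 501 CPM, with COL1A2 at 0 to 2 reads throughout. Among them THY1 had 11 reads in the PBS library and 1681 to 2082 with Migs. VIM, which made up most of the summed level, differed little, at 283 CPM in the PBS library and 259 to 286 CPM with Migs. Endothelial markers reached 10 reads for 3 of 6 genes in the PBS library and 2 to 3 with Migs (3.53 and 4.43 to 5.88 CPM in sum), and leukocyte markers for 1 of 5 throughout (0.637 and 1.44 to 2.51 CPM), with PTPRC at 0 to 2 reads. BSG had 1395 CPM in the PBS library and 925 to 999 CPM with Migs, which is no check of a knockout made in the donor cells. The part of these differences in the results below was not tested, and in bulk RNA fewer cells of a type and less RNA per cell cannot be told apart.

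The binding protein transcripts were of a different make-up in the PBS library than in the 3 libraries with Migs. In the PBS library, IGFBP3 was the leading binding protein, and in each Mig library it was IGFBP4. Of the 9 genes, 8 had at least 10 reads in at least 1 library and entered the counts, IGF2 being the exception. Beside the PBS library, 6 of these 8 were more than 2-fold higher with normo-Migs, where 18.1% of the 19895 genes tested were that much higher, and 1 was more than 2-fold lower, where 12% of genes were. The same 6 were higher with hypo-Migs, against a background of 18.9%, and the same 1 was lower, against 11.6%. They were again higher with CD147KO-Migs, against 18.3%, and the 1 lower, against 12%. The 6 were IGFBP1, IGFBP2, IGFBP4, IGFBP5, IGFBP6 and IGFBP7, and the 1 was IGFBP3. Because the genes were chosen with earlier results of these data known, the shares of all genes are no test of the set. IGFBP2 and IGFBP5 had 0 reads in the PBS library and entered only through their reads with Migs. With 10 reads or more against 0, they were bound to be counted as higher. Under a stricter filter, asking 10 reads of all 4 libraries, 5 genes stayed past 2-fold in each comparison. They were IGFBP1, IGFBP4, IGFBP6 and IGFBP7, all higher, and IGFBP3, lower. IGF2R also passed this filter and stayed within 2-fold. The share of all genes past 2-fold under this filter was not computed, so the 5 have no background. These 3 comparisons share the PBS library, so they are not 3 independent observations of it. The median log2 fold change of the 8 genes was 2.52 after normo-Migs, 2.32 after hypo-Migs and 2.21 after CD147KO-Migs. IGFBP2 and IGFBP5 had 0 reads in the PBS library. Placed at their fold against a limit of 3 reads there, before counting error, they gave medians of 2.07, 2.32 and 1.89. The median over all genes tested was 0.03, 0.04 and 0.03.

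**Figure D1:**
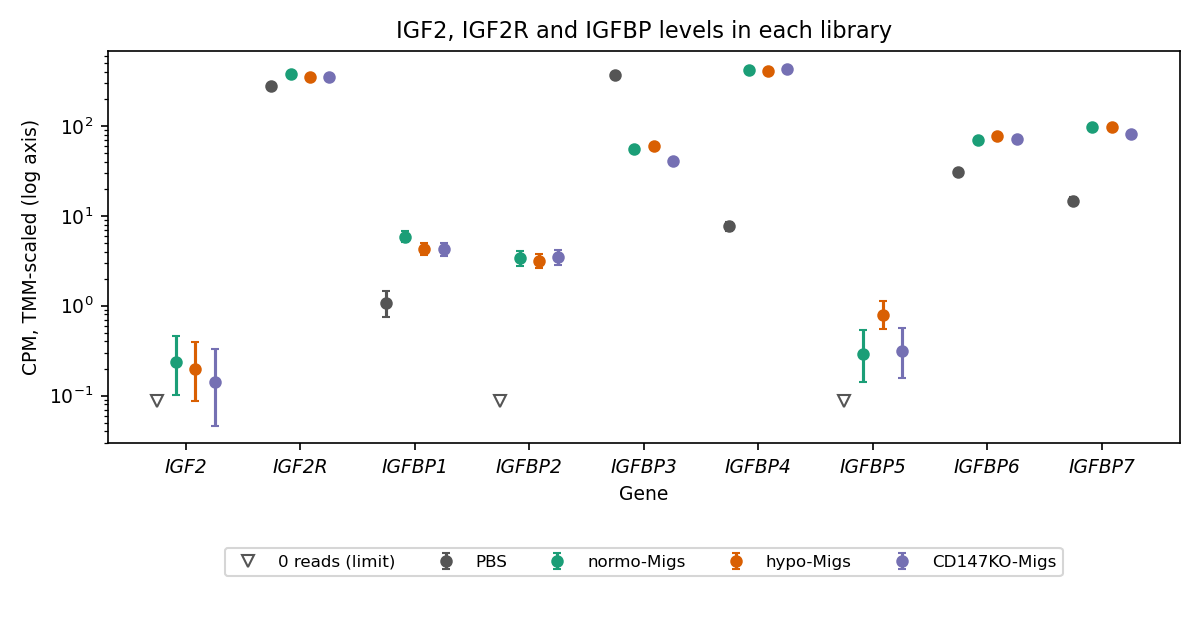
Level of each gene (CPM after TMM scaling, log axis) in the 4 libraries, with exact 95% Poisson intervals for counting error and open triangles at the limit of 3 reads where a library had 0. IGFBP3 is highest in the PBS library (375 CPM against 40.8 to 59.8), IGFBP4 is lowest there (7.68 CPM against 413 to 429), and IGF2 and IGFBP5 lie below 1 CPM throughout.

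The ligand itself was barely detected. IGF2 (ENSG00000167244, chr11:2129112-2149603 of GRCh38, minus strand) had 0 reads in the PBS library, 8 after normo-Migs, 8 after hypo-Migs and 5 after CD147KO-Migs. A library with 0 reads allows up to 3, and against that limit the IGF2 counts were at least 2.70-fold higher with normo-Migs, 2.29-fold with hypo-Migs and 1.64-fold with CD147KO-Migs, before the counting error of these few reads. The exact 95% intervals of the log2 ratio, which include that error, began at 0.79, 0.55 and -0.15, so IGF2 with CD147KO-Migs did not differ from the PBS library beyond counting error. It was below the minimum of 10 reads and was not among the genes tested. The count of IGF2 is uncertain for another reason. In the annotation of the files 75.0% of its 6979 exon bases are shared with other genes, among them 5144 bases with a further gene also named IGF2 (ENSG00000284779) and 1460 bases with the read-through gene INS-IGF2, each at 0 reads in all 4 libraries, and how reads in shared bases were assigned is not given in the sources used here. Only 1744 bases belong to IGF2 alone.

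IGF2R (chr6:159969099-160113507, plus strand) encodes the receptor that binds IGF2 and mannose 6-phosphate bearing lysosomal enzymes. It was deeply counted and had the smallest range of the 9 genes over the 4 libraries, 0.42 on the log2 scale. IGF2R had 9747 reads (282 CPM) in the PBS library, 12848 (377 CPM) after normo-Migs, 14243 (355 CPM) after hypo-Migs and 12155 (347 CPM) after CD147KO-Migs. The PBS library was lowest, by 0.42, 0.33 and 0.30 on the log2 scale in the same order of Migs. None of these differences reached 2-fold, although each exact 95% interval of the read ratio excluded equality (0.38 to 0.46, 0.29 to 0.37 and 0.26 to 0.34). Such intervals cover counting error only, and reads that carry no molecular identifier are not independent molecules.

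The balance between the clearing and the signalling receptor was reversed between the PBS library and the others. IGF1R, the tyrosine kinase receptor of both IGFs, had 3486 reads in the PBS library, 13689 after normo-Migs, 16859 after hypo-Migs and 14120 after CD147KO-Migs, log2 fold changes of 1.99, 2.06 and 2.00. Per length, IGF2R was above IGF1R in the PBS library (15.8 and 7.23 FPKM, a ratio of 2.18). It was below IGF1R with Migs, at ratios of 0.733 after normo-Migs, 0.660 after hypo-Migs and 0.673 after CD147KO-Migs. The insulin receptor INSR, which also takes IGF2, lay lower than both with Migs, at 3.44 to 3.59 FPKM, and at 4.32 FPKM in the PBS library.

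Of the carriers, IGFBP3 and IGFBP4 went opposite ways. IGFBP3 (ENSG00000146674, chr7:45912245-45921874, minus strand) encodes the main IGF carrier of blood, where it forms a complex with IGF and the acid-labile subunit. IGFBP3 had 12928 reads (375 CPM) in the PBS library, 1870 (54.9 CPM) after normo-Migs, 2401 (59.8 CPM) after hypo-Migs and 1429 (40.8 CPM) after CD147KO-Migs. The PBS library thus held 6.82, 6.26 and 9.18 times the level of the normo-Migs, hypo-Migs and CD147KO-Migs libraries. The log2 fold changes were -2.77 (95% interval -2.84 to -2.70), -2.65 (-2.71 to -2.58) and -3.20 (-3.28 to -3.12).

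IGFBP4 (ENSG00000141753, chr17:40443461-40457731, plus strand) encodes a carrier that mostly restrains IGF action and is cut by the protease PAPPA. IGFBP4 had 265 reads (7.68 CPM) in the PBS library, 14361 (421 CPM) after normo-Migs, 16568 (413 CPM) after hypo-Migs and 15018 (429 CPM) after CD147KO-Migs. The 3 Mig libraries were nearly level with each other, and the PBS library was far below them. The ratios to it were 54.9 (log2 5.77, 95% interval 5.60 to 5.96), 53.8 (5.74, 5.57 to 5.93) and 55.8 (5.79, 5.63 to 5.98). Per length, the ratio of IGFBP4 to IGFBP3 was 0.0426 in the PBS library and 16.0, 14.3 and 21.8 with normo-Migs, hypo-Migs and CD147KO-Migs.

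The promoters of this pair, which differed most in direction, are shown for reference as the bases just before the transcript start that RefSeq gives on GRCh38.p14. Both hold a TATA-like motif, in capitals: TATATA starts 30 bases before the start of IGFBP3 and TATAAA 29 bases before that of IGFBP4. Of 35116 windows of 250 bases before RefSeq starts, 3.73% held TATATA and 10.7% held TATAAA on either strand. A letter match is not evidence of a working site. The IGFBP3 window (less 2 bases that are UTR in the annotation) lies at chr7:45921275-45921522 (minus strand), 602 bases inside the outermost start in the annotation of the files, and the IGFBP4 window at chr17:40443200-40443449 (plus strand).
IGFBP3: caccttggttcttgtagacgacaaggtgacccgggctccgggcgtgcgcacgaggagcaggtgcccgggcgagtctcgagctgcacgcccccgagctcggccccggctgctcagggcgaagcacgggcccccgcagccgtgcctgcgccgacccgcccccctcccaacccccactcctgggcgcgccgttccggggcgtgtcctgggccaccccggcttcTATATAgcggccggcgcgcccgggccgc
IGFBP4: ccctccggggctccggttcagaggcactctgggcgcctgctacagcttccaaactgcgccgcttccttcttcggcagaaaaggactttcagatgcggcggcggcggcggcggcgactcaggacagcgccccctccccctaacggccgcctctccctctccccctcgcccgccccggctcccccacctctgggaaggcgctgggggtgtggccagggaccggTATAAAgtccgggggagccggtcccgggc
Neither window held the E-box CACGTG, found in 6.34% of windows, the forkhead motif GTAAACA, found in 2.98%, or CCAAT, found in 32.0%. The hypoxia response core is written ACGTG or GCGTG. The form ACGTG, found in 18.5% of windows, was in neither. The form GCGTG, found in 32.2%, was present 3 times before IGFBP3 and 0 times before IGFBP4. The GC box GGGCGG, found in 42.6%, was present 1 time in each printed window. All motifs were searched on both strands. RefSeq windows were held for 6 of the 9 genes, not for IGF2, IGFBP1 and IGFBP7.

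IGFBP1, IGFBP2 and IGFBP5 had the lowest levels of the carriers. IGFBP1 (chr7:45888357-45893668, plus strand), a liver-made carrier that insulin represses, had 37 reads (1.07 CPM) in the PBS library, 200 (5.87 CPM) after normo-Migs, 171 (4.26 CPM) after hypo-Migs and 149 (4.25 CPM) after CD147KO-Migs. It was higher in every Mig library than in the PBS library, by log2 2.39 (1.94 to 3.00), 1.94 (1.47 to 2.54) and 1.93 (1.46 to 2.55). IGFBP1 and IGFBP3 are neighbours on chromosome 7, their 3′ ends facing each other across 18576 bases, and they differed from the PBS library in opposite directions.

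IGFBP2 (chr2:216632828-216664436, plus strand), which can bind integrins as well as IGFs, had 0 reads in the PBS library, 115 after normo-Migs, 126 after hypo-Migs and 121 after CD147KO-Migs. Against the limit of 3 reads it was 38.8-fold, 36.1-fold and 39.7-fold higher in the same order of Migs, before counting error. The exact 95% intervals of the log2 ratio of IGFBP2, which include that error, began at 4.96, 4.86 and 4.99. IGFBP5 (chr2:216672105-216695525, minus strand), a carrier that sticks to extracellular matrix, lies 7668 bases beyond IGFBP2, again with the 3′ ends facing. IGFBP5 had 0 reads in the PBS library, 10 after normo-Migs, 32 after hypo-Migs and 11 after CD147KO-Migs. Against the limit of 3 reads it was 3.38-fold, 9.17-fold and 3.61-fold higher, before counting error. The exact 95% intervals of its log2 ratio began at 1.18, 2.82 and 1.31. The neighbouring pair was thus undetected in the PBS library and present in each Mig library, IGFBP2 at the higher level per length (0.702 and 0.0452 FPKM with normo-Migs).

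IGFBP6 and IGFBP7 came next to IGFBP4 among the carriers with Migs. IGFBP6 (chr12:53097436-53102345, plus strand) prefers IGF2 to IGF1. It had 1068 reads (30.9 CPM) in the PBS library, 2378 (69.8 CPM) after normo-Migs, 3121 (77.8 CPM) after hypo-Migs and 2496 (71.3 CPM) after CD147KO-Migs. The log2 fold changes of IGFBP6 were the smallest of the 6 higher genes, 1.17 (1.07 to 1.28), 1.33 (1.23 to 1.43) and 1.20 (1.10 to 1.31).

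IGFBP7 (chr4:57030773-57110385, minus strand) binds IGFs only weakly and is a protein of vessel walls and basement membrane. It had 509 reads (14.7 CPM) in the PBS library, 3366 (98.8 CPM) after normo-Migs, 3876 (96.6 CPM) after hypo-Migs and 2888 (82.5 CPM) after CD147KO-Migs. The log2 fold changes were 2.74 (2.61 to 2.88), 2.71 (2.58 to 2.85) and 2.48 (2.35 to 2.62). Of its exon bases, 14.0% overlap POLR2B on the opposite strand, which had 4626 to 7149 reads, and the strand setting of the counting is not given in the sources used here, so the 2 genes could share reads.

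The summed level of the 7 binding proteins was 116 FPKM in the PBS library, 308 after normo-Migs, 309 after hypo-Migs and 300.0 after CD147KO-Migs. By reads, which are not per length, IGFBP3 took 87.3% (exact 95% binomial interval 86.8 to 87.8) of the 14807 binding protein reads in the PBS library, and IGFBP4 took 1.79% (1.58 to 2.02). With normo-Migs IGFBP3 took 8.39% (8.03 to 8.76) and IGFBP4 64.4% (63.8 to 65.0) of 22300 reads. With hypo-Migs IGFBP3 took 9.13% (8.79 to 9.49) and IGFBP4 63.0% (62.4 to 63.6) of 26295 reads. With CD147KO-Migs the share of IGFBP3 was lowest, 6.46% (6.14 to 6.79), and that of IGFBP4 highest, 67.9% (67.3 to 68.5), of 22112 reads.

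**Figure D2:**
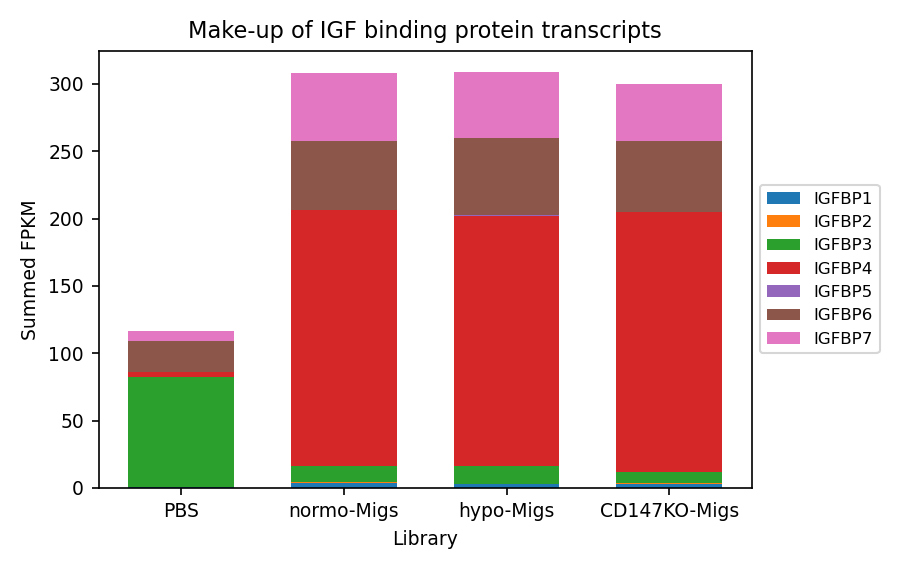
Summed FPKM of IGFBP1 to IGFBP7 in each library, stacked by gene. The bar of the PBS library reaches 116 FPKM and is mostly IGFBP3 (70.2%), whereas those with Migs reach 300.0 to 309 FPKM and are mostly IGFBP4 (60.2% to 64.4%).

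Ranked by FPKM, the order in the PBS library was IGFBP3, IGFBP6, IGF2R, IGFBP7, IGFBP4 and IGFBP1, with IGF2, IGFBP2 and IGFBP5 at 0. In each of the 3 Mig libraries the order was IGFBP4, IGFBP6, IGFBP7, IGF2R, IGFBP3, IGFBP1, IGFBP2, IGFBP5 and IGF2. Neighbours in these orders were separated by more than their counting intervals, except IGFBP6 and IGFBP7 with normo-Migs (51.4 and 50.7 FPKM), and IGFBP5 and IGF2 with normo-Migs (0.0452 and 0.0334 FPKM) and with CD147KO-Migs (0.0483 and 0.0203 FPKM).

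The study compared hypo-Migs with normo-Migs, for the hypoxia of the donor cells, and with CD147KO-Migs, for the CD147 that hypo-Migs carry. These comparisons do not use the PBS library, and they share libraries with each other. A difference beyond counting error is one whose 95% interval of the read ratio excludes equality. Genes with many reads reach this more easily, and the shares of all genes given here are not matched for depth. With hypo-Migs against normo-Migs, 1 of the 8 genes was past 2-fold, where 9.34% of genes were, and 5 of 8 differed beyond counting error, where 34.9% did. With hypo-Migs against CD147KO-Migs, 1 of 8 was past 2-fold, where 9.12% of genes were, and 5 of 8 differed beyond counting error, where 35.0% did. With normo-Migs against CD147KO-Migs, 0 of 8 were past 2-fold, where 9.69% of genes were, and 4 of 8 differed beyond counting error, where 34.5% did. The medians of the 8 genes were -0.03, 0.08 and 0.05 on the log2 scale, against 0.00 over all genes in each. The gene past 2-fold was IGFBP5 both times, and it has the fewest reads of the 8.

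**Figure D3:**
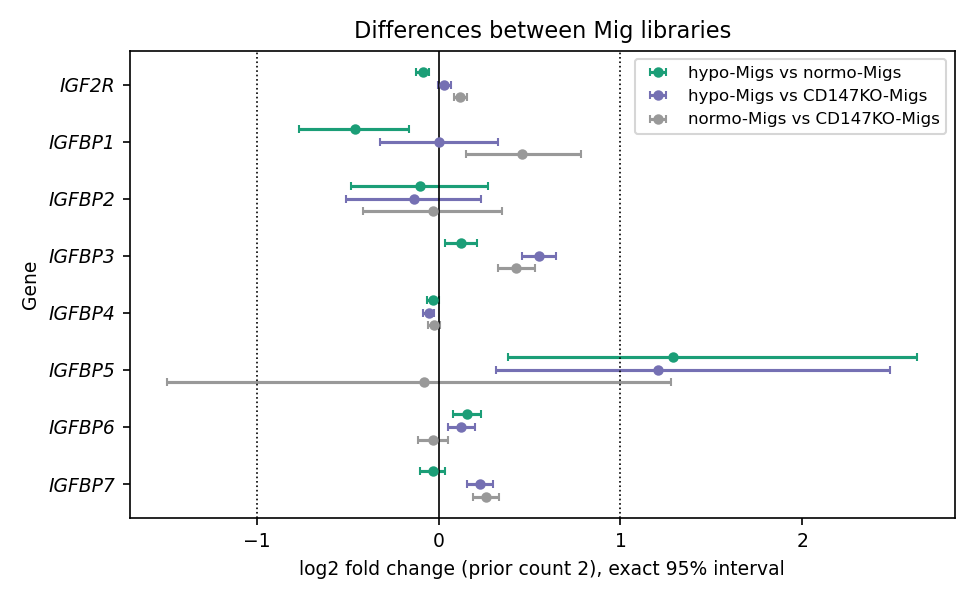
Log2 fold change (prior count 2) of the 8 tested genes between Mig libraries, with exact 95% intervals of the read ratio for counting error, and dotted lines at 2-fold. IGFBP5 lies past 2-fold with hypo-Migs against both others (1.29 and 1.21) with wide intervals, IGFBP3 is lower with CD147KO-Migs than with either (0.55 and 0.43), and IGFBP4 lies between -0.05 and -0.02.

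IGFBP5 was higher with hypo-Migs than with normo-Migs by log2 1.29 (0.38 to 2.63) and than with CD147KO-Migs by 1.21 (0.32 to 2.48). Its 10 and 11 reads with normo-Migs and CD147KO-Migs did not differ beyond counting error (-0.08, -1.49 to 1.28).

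IGFBP3 was lowest with CD147KO-Migs. It was 1.47 times as high with hypo-Migs as with CD147KO-Migs (log2 0.55, 0.46 to 0.65) and 1.35 times as high with normo-Migs (0.43, 0.33 to 0.53). Between hypo-Migs and normo-Migs the difference was 0.12 (0.04 to 0.21). The range of IGFBP3 over the Mig libraries, 0.55 on the log2 scale, was wide for a gene counted this deeply: of the 7008 genes that averaged 1000 reads or more over these libraries, a minimum chosen after the values were seen, 0.157% had a range at least as wide, and their median range was 0.11. Over all genes tested, many with few reads, 30.0% had a range at least as wide, and the median was 0.25.

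IGFBP4 showed the narrowest range of the 8 genes, 0.05, at a mean of 15316 reads. Even there the difference between hypo-Migs and CD147KO-Migs, -0.05 (-0.09 to -0.02), was beyond counting error, so a difference of that kind can be very small in a gene with many reads.

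IGFBP1 was highest with normo-Migs. The log2 difference was -0.46 (-0.77 to -0.16) for hypo-Migs against normo-Migs and 0.46 (0.15 to 0.78) for normo-Migs against CD147KO-Migs, while hypo-Migs against CD147KO-Migs gave 0.00 (-0.32 to 0.33). IGFBP2 did not differ beyond counting error in any of the 3 comparisons, at -0.10 (-0.48 to 0.27), -0.14 (-0.51 to 0.23) and -0.03 (-0.41 to 0.35), intervals that leave room for differences of about the size seen in IGFBP1.

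IGFBP6 was highest with hypo-Migs, by 0.16 (0.08 to 0.23) over normo-Migs and 0.13 (0.05 to 0.20) over CD147KO-Migs. IGFBP7 was lowest with CD147KO-Migs, by 0.23 (0.16 to 0.30) beside hypo-Migs and 0.26 (0.19 to 0.33) beside normo-Migs. IGF2R was highest with normo-Migs, with -0.09 (-0.12 to -0.05) for hypo-Migs against it and 0.12 (0.08 to 0.16) for normo-Migs against CD147KO-Migs. IGF2, with 8, 8 and 5 reads, allowed no difference to be detected at this depth.

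The other genes of the IGF axis were taken from a list drawn up with earlier results of these data known. It held 34 genes, of which 29 had enough reads. Beside the PBS library, 10 were more than 2-fold higher and 5 lower with normo-Migs, 8 higher and 5 lower with hypo-Migs, and 9 higher and 4 lower with CD147KO-Migs, near the shares of all genes for the lower ones and above them for the higher ones. Their medians were 0.04, -0.12 and -0.14, near those of all genes. With genes at 0 reads placed against the limit of 3 reads they were 0.04, 0.00 and 0.00. Among the genes counted as higher, ADAM12, ADAM28, IGFBPL1, IGF1 and INSRR entered only through their reads with Migs. Among the lower ones, PAPPA2 and IGFALS entered only through the PBS library. An excess over the shares cannot be read from these counts. Between Mig libraries 2 were higher and 3 lower past 2-fold with hypo-Migs against normo-Migs, 2 and 2 with hypo-Migs against CD147KO-Migs, and 1 and 1 with normo-Migs against CD147KO-Migs, and all of these had 27 reads or fewer in each Mig library. These are counts of 29, beside 9.34%, 9.12% and 9.69% of all genes past 2-fold in either direction. Most of those named here had the largest differences, beside the signalling receptors above.

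Of the 9 genes of this list that carry, cut or protect the binding proteins, 5 were more than 2-fold higher with each kind of Migs than in the PBS library, and 2, 2 and 1 were lower, beside 18.1%, 18.9% and 18.3% of all genes higher and 12%, 11.6% and 12% lower. Among the 5, ADAM12, ADAM28 and IGFBPL1 had 2 reads or fewer in the PBS library and entered only through their reads with Migs. The lower ones, PAPPA2 and IGFALS, entered only through the PBS library. An excess over the shares therefore cannot be read from these counts. With hypo-Migs the 5 include ADAM28 on 5 reads against 0, which was not beyond counting error. PAPPA, the protease that cuts IGFBP4, had 193 reads in the PBS library and 2430, 2671 and 2435 with normo-Migs, hypo-Migs and CD147KO-Migs, log2 fold changes of 3.66, 3.56 and 3.62. STC1, a secreted inhibitor of PAPPA, had 62 reads and 1737, 2116 and 1574, log2 fold changes of 4.78, 4.83 and 4.60. IGFBP4, PAPPA and STC1 were thus all higher in each Mig library than in the PBS library. STC2, the related inhibitor of PAPPA, went the other way within 2-fold. It had 5614 reads in the PBS library and 3947, 3802 and 3188 with Migs, log2 fold changes of -0.49, -0.78 and -0.84. ADAM12, which can cut IGFBP3 and IGFBP5, had 2 reads and 250, 397 and 304. The binding protein relative IGFBPL1 had 0 reads and 140, 172 and 173, at least 47.3-fold, 49.3-fold and 56.8-fold higher. ADAM28, a further protease of IGFBP3, had 0 reads and 10, 5 and 18. PAPPA2, which cuts IGFBP3 and IGFBP5, had 17 reads in the PBS library and 0, 4 and 0 with Migs. IGFALS, the acid-labile subunit, was low throughout, with 11 reads and 4, 0 and 7.

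The ligands other than IGF2 were close to undetected. IGF1 had 1 read in the PBS library, 13 after normo-Migs, 0 after hypo-Migs and 0 after CD147KO-Migs, and INS had 0 in all 4. The adaptor IRS1, which IGF1R phosphorylates, had 186 reads in the PBS library and 940, 1050 and 894 with Migs, log2 fold changes of 2.34, 2.27 and 2.23. The insulin receptor relative INSRR had 6 reads and 22, 10 and 16. INSR differed from the PBS library by -0.26, -0.26 and -0.32.

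At the IGF2 locus, the imprinted long RNA H19, which lies beside IGF2 and is made from the other parental copy, had 798 reads in the PBS library, 0 after normo-Migs, 27 after hypo-Migs and 2 after CD147KO-Migs. It was at least 263-fold lower with normo-Migs than in the PBS library, and the log2 fold changes were -4.99 (-5.71 to -4.55) with hypo-Migs and -7.68 (-11.71 to -6.80) with CD147KO-Migs. H19 was thus highest in the library in which IGF2 had 0 reads, and the few IGF2 reads came from the libraries in which H19 had 27 or fewer. IGF2 was below the read minimum, and with CD147KO-Migs it did not differ from the PBS library beyond counting error. A relation between the 2 genes cannot be read from such counts and was not tested. PLAG1, an activator of IGF2 transcription, had 394 reads in the PBS library and 21, 47 and 31 with Migs. HMGA2, which acts upstream of PLAG1 and IGF2, had 39 reads and 343, 457 and 346, so these regulators differed in opposite directions. All 4 genes of the mannose 6-phosphate pathway of IGF2R (M6PR, GNPTAB, GNPTG and NAGPA) were within 2-fold in every comparison.

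**Figure D4:**
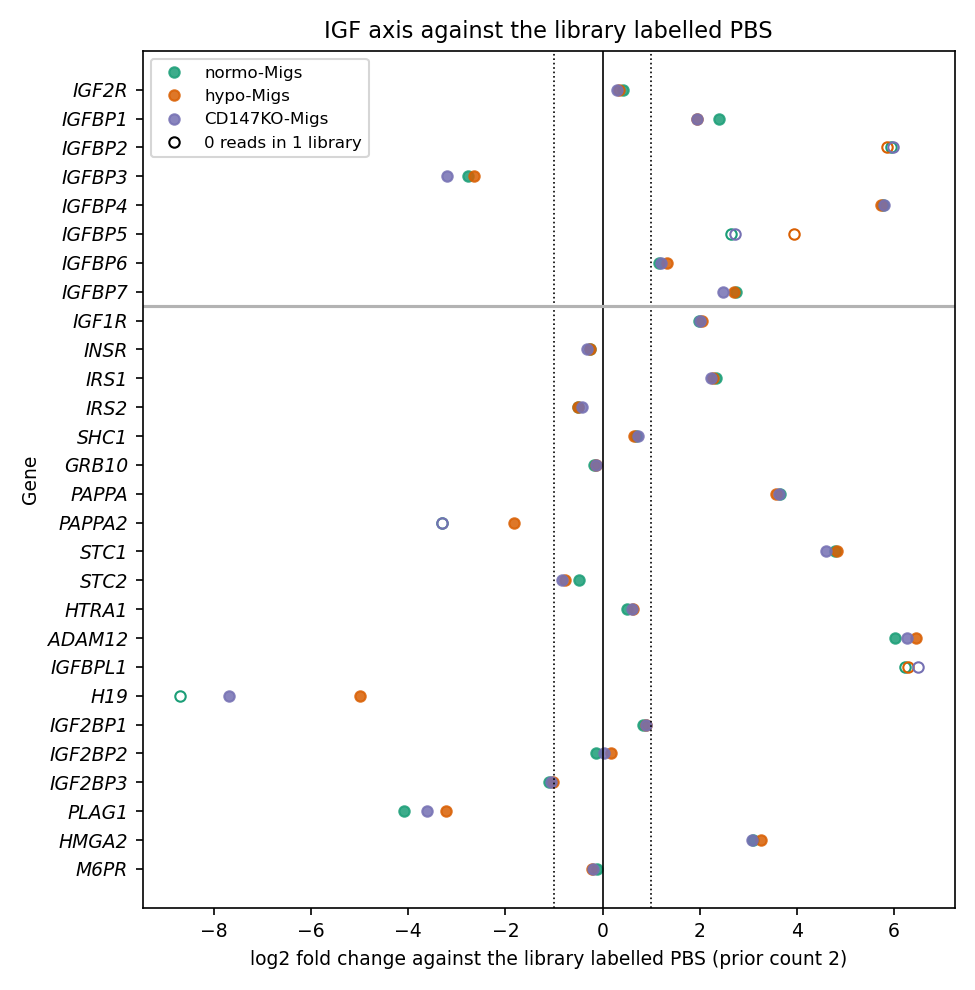
Log2 fold change (prior count 2) of the 8 tested genes (above the grey line) and 20 other genes of the IGF axis in each Mig library against the PBS library, with dotted lines at 2-fold. Open circles mark genes with 0 reads in 1 of the libraries compared, whose place depends on the prior count. IGFBP3, PAPPA2, H19, IGF2BP3 and PLAG1 lie left of the lower line in each library, IGF2BP3 only just (-1.11, -1.02 and -1.06 with normo-Migs, hypo-Migs and CD147KO-Migs). IGF2R, INSR and M6PR lie between the lines.

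For each gene that spanned more than 2-fold, the genes with the most similar pattern over the 4 libraries were found as the smallest Euclidean distance between log2 CPM values centred on their mean, among the 12180 genes that averaged 50 reads or more. Nearest to IGFBP3 were BMP2 (distance 0.141; 1723, 254, 328 and 215 reads in the order PBS, normo-Migs, hypo-Migs, CD147KO-Migs), ARHGAP28 and CNKSR1, and only 19 genes lay within 0.5 of it. Nearest to IGFBP4 were P3H3, DDIT4L and RGS11, of which DDIT4L and RGS11 had 0 reads in the PBS library, so that their distance depends on the prior count. Nearest to IGFBP2 were COL6A2, LGI2 and CDH1, the last 2, like IGFBP2, at 0 reads in the PBS library. IGFBP7 had PPM1L, PRRT4 and FAM171A1, IGFBP1 had ADAM11, SH2B3 and PIANP, and IGFBP6 had FBXO6, VMP1 and SNX2, with 1256 genes within 0.5. For IGFBP5 none of the 12180 genes lay within 0.5, the nearest being GAB3 at 0.553 (6, 74, 142 and 73 reads). The patterns of IGFBP2, IGFBP5 and IGF2, each at 0 reads in the PBS library, also depend on the prior count, and so do their distances. The nearest to IGF2 (MEGF11, DUSP2 and ADAM11) rest on 8 reads or fewer of IGF2 in each library. With 4 libraries, and mostly a contrast of 1 against 3, such likeness describes these libraries only.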

How the data were processed

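RNA-seq libraries of MHCC-97H cells were analysed, 1 per condition, grouped by the treatment in the labels. For normo-Migs, the labels and the supplementary methods give donor cells in normoxia and the main methods hypoxia, and the labels were followed. The methods describe poly-T selection of mRNA and random hexamer priming, while the labels name a SMARTer mRNA kit. According to the submitters' processing notes, CASAVA 1.8, fastp, HISAT2 2.0.5 and featureCounts 1.5.0-p3 were used with hg38. The strand setting and the treatment of reads in overlapping genes are not given in the sources used here. The authors deposited raw counts per gene without normalization, and FPKM, which they had scaled by exon length and library size. Within a library, each deposited FPKM was the same multiple, 0.980 to 1.01, of that expected from exon length and total reads on genes. All 58735 genes had identical coordinates in GENCODE release 29.

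The 19895 genes that reached 10 reads in any library were tested, meaning compared by fold only. Counts were scaled by TMM, and a prior count of 2 was added before log2 fold changes were taken. A gene was counted when its log2 fold change was at least 1 in size. Intervals of read ratios were exact (Clopper-Pearson, 95%), and 0 reads allowed up to 3 per library, 0.0747 to 0.0880 CPM. The quasi-likelihood test of edgeR and DESeq2 could not be fitted without residual degrees of freedom. Procedures were tested on simulated data. R 4.3.3, edgeR 4.0.16, DESeq2 1.42.0, Python 3.11.15, numpy 2.4.6, pandas 2.3.3, scipy 1.17.1 and matplotlib 3.10.9 were used.

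The members and the list of the IGF axis were chosen with earlier results of these data known. Named in the text were the members, IGF1R, INSR and IGF1, and up to 12 others of the axis with the largest log2 fold change in size, among those past 2-fold the same way in all 3 comparisons with the PBS library or past 2-fold between Mig libraries, as well as genes overlapping a member. Up to 3 genes of like pattern were named per member. M6PR, GNPTAB, GNPTG, NAGPA, INS, STC2 and IGF2BP3 were named after their values were seen. The alternatives were other scaling, prior count, filters, FPKM with a pseudocount, and adjusted p-values with an assumed spread. Promoter sequences came from RefSeq.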

Additional observations from a re-analysis of the deposited data

How the results depend on the processing

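With 1 library per condition, leaving out a replicate was not possible. No paired analysis was possible because each condition has 1 library. The counts of genes past 2-fold against the PBS library, 7 in each comparison, were 7 without TMM scaling, with DESeq2 size factors, with a prior count of 0.25 and with the exact binomial test of edgeR. They were 5 to 8 with other filters on reads and on FPKM. When an adjusted p was required with an assumed coefficient of variation of 0.4 between cultures, the count was 4 with normo-Migs (IGFBP2, IGFBP3, IGFBP4 and IGFBP7), 5 with hypo-Migs (these and IGFBP5) and 3 with CD147KO-Migs (IGFBP2, IGFBP3 and IGFBP4). The single count of IGFBP5 with hypo-Migs against normo-Migs, and against CD147KO-Migs, became 0 under that spread, on log2(FPKM + 1), on log2(FPKM + 0.1), and when every library had to reach 10 reads, since IGFBP5 had 0 in the PBS library. The highest level of IGFBP5 was 0.123 FPKM, close to the smaller pseudocount and far below the larger. Of 48 log2 fold changes of the tested genes, 20 moved beyond their counting interval on log2(FPKM + 1), 6 on log2(FPKM + 0.1), 1 without TMM scaling and 0 with DESeq2 size factors, and no fold past 2-fold turned its direction. IGFBP1 with hypo-Migs against CD147KO-Migs, at 0.00, went to -0.0024 without TMM scaling. The number differing beyond counting error between normo-Migs and CD147KO-Migs was 5 rather than 4 without TMM scaling, the addition being IGFBP4. The share of all genes past 2-fold was not computed under these alternatives, so their counts have no background. The depth limits IGF2 and IGFBP5, and nothing here measures the spread between cultures.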

Other observations

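IGFBP3 was the gene ranked 11 by range over the Mig libraries among the 7008 genes that averaged 1000 reads or more there. The genes ranked above it included SERPINE2 (5016, 4354 and 2354 reads in the order normo-Migs, hypo-Migs, CD147KO-Migs), EIF3C (2573, 1479 and 2227), STEAP4 (1142, 1718 and 2093) and CA9, a carbonic anhydrase of hypoxic cells (1119, 1297 and 768). By reads, CA9 was ordered over the 4 libraries as IGFBP3 was, highest in the PBS library (3824 reads), hypo-Migs next and CD147KO-Migs lowest. After scaling that order was not shared, as hypo-Migs stood at -0.02 against normo-Migs for CA9 and at 0.12 for IGFBP3. The log2 difference between hypo-Migs and CD147KO-Migs was 0.56 for CA9 beside 0.55 for IGFBP3. These genes were singled out after their values were seen, and 1 library per condition gives no measure of the spread between cultures for them.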
